A study of Mus musculus with 2 samples.

Results

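The immunoglobulin variable gene segments are the 348 gene entries whose symbols start with Ighv (heavy chain, 185 entries), Igkv (kappa light chain, 160) or Iglv (lambda light chain, 3), and they were read in CD45+ cells from mouse liver tumours. The members were taken by symbol out of all the genes of the deposited matrices, and they carry 346 distinct symbols, since 2 symbols stand on more than 1 identifier. They were followed in 2 sets of barcodes. The plasma set holds barcodes with at least 5 UMIs (unique molecular identifiers, each standing for 1 captured transcript) of Mzb1, Derl3 and Txndc5 together, which are endoplasmic reticulum genes high in antibody-secreting cells. The B set holds barcodes with at least 1 UMI of Ms4a1 (CD20) or Pax5 that did not meet the plasma rule.

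Both libraries came from C57BL/6 mice that bore RIL-175 tumours, a luciferase-labelled mouse hepatoma line placed in the liver, after 2 weeks of the MCD diet, which sets up a fatty liver before the tumour. The AKK group was fed 5000000000 CFU (colony-forming units) of Akkermansia muciniphila, a gut bacterium, and the PBS group was given PBS. Feeding began 2 weeks before the diet, ran on through it, stopped for 6 days after the implantation and was then taken up again until the end. The tumours were digested, live CD45+ cells were sorted, and 1 droplet library with reads from the 3′ end of transcripts was made for each group. The number of mice behind each library and their age are not stated in the labels, so no replicate exists, no test between groups was possible, and every interval below covers counting error only.

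A B cell builds each of its antibody chains by joining 1 V segment to a J segment (in the heavy chain with a D segment between them), and the joined V exon is then spliced to a constant region. The mouse heavy and kappa loci offer many V segments, whereas the lambda locus offers very few. As a rule a cell keeps 1 productive heavy and 1 productive light chain, so the V segment with the most UMIs in a barcode is a label that daughter cells share, and plasma cells, which make antibody in bulk, carry it at the highest level. The V exon lies at the 5′ end of the message, far from the end that a 3′ library reads.

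All 348 members were found in the mouse annotation GENCODE M21 (build GRCm38, called mm10 in the submitters' processing notes). The heavy segments lie on chromosome 12, where 113 were annotated as V genes, 2 as a related class and 70 as pseudogenes. The kappa segments lie on chromosome 6 with 100 V genes and 60 pseudogenes, and the 3 lambda segments lie on chromosome 16. Sequence likeness limits how well reads can be placed: 22 members, 16 of them heavy, have a partner at least 98% identical over the last 280 bases of the transcript.

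The sequences on which the results turn are given below as the last 280 bases of the GENCODE M21 transcript, 5′ to 3′. Each comes from exons of its V gene. The first 5 are the members of the pairs of heavy and light segment found in several barcodes, and the capitals mark the codon of the conserved cysteine near the end of the V region, just ahead of the junction that a V segment alone does not show. Ighv1-9 lies at chr12:114583569-114584002, Igkv8-30 at chr6:70117061-70117620, Ighv3-8 at chr12:114322327-114322801, Igkv10-96 at chr6:68631963-68632442 and Ighv2-6 at chr12:113716670-113717103, each on the minus strand. The annotated transcript of Ighv3-8 runs 55 bases past this codon.
Ighv1-9: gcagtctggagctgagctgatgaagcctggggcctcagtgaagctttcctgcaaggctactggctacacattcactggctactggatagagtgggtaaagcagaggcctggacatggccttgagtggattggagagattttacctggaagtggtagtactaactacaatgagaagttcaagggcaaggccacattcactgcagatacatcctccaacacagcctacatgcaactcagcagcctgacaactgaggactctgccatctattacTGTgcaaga
Igkv8-30: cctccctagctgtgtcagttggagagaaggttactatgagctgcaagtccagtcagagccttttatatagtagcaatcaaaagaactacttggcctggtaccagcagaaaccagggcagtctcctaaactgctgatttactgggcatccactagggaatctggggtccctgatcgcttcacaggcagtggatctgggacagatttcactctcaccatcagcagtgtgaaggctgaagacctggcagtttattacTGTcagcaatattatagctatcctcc
Ighv3-8: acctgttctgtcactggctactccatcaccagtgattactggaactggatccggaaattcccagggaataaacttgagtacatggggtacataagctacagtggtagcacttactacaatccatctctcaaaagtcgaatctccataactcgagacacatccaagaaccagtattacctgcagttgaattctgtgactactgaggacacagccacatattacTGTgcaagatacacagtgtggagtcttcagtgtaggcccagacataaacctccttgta
Igkv10-96: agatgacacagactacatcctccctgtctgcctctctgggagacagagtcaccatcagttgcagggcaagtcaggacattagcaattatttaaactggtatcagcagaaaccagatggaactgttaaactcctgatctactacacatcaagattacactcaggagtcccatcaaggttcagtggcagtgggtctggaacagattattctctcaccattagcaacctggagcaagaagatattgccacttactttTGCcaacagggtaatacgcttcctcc
Ighv2-6: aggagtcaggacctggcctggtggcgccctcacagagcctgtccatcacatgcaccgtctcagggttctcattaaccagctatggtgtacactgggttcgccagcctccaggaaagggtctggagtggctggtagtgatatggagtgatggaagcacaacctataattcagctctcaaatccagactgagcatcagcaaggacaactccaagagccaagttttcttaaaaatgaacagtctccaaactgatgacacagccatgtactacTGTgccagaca

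The next pair shows how close the lambda segments Iglv1 (chr16:19085017-19085500, minus strand) and Iglv2 (chr16:19260401-19260859, minus strand) are. The capitals mark the 7 bases at which they differ, an identity of 97.5%.
Iglv1: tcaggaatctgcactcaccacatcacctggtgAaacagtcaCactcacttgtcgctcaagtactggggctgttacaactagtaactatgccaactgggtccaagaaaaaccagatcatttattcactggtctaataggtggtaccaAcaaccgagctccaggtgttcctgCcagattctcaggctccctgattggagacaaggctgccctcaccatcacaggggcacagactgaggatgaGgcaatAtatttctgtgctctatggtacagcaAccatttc
Iglv2: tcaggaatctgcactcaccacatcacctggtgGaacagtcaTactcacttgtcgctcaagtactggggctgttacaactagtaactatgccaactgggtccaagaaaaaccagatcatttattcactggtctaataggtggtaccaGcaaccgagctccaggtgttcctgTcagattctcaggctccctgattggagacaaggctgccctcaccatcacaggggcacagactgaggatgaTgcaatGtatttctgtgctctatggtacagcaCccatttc

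The last pair is shown because the UMIs of single barcodes were divided between its members. Ighv1-62-3 (chr12:115460999-115461485, minus strand) and Ighv1-72 (chr12:115757984-115758461, minus strand) differ at 2 of 280 bases, in capitals, an identity of 99.3%.
Ighv1-62-3: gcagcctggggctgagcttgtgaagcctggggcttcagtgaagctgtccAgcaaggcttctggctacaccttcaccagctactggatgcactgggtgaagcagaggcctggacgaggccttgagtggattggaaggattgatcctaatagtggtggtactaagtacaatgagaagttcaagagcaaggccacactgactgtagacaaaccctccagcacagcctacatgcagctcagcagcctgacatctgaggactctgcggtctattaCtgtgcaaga
Ighv1-72: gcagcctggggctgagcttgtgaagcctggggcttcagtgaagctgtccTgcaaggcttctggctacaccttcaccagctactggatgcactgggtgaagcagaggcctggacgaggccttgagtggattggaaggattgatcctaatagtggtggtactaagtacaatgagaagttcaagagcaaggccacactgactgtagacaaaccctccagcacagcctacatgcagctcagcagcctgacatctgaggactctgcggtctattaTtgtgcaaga

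In PBS, 5088 barcodes gave 64731604 UMIs (median 6558.5 per barcode), and in AKK 6610 barcodes gave 74495998 (median 6488). Only 8 barcode sequences occurred in both libraries. The plasma set took 196 PBS barcodes (3.85%, exact 95% interval 3.34 to 4.42) and 397 AKK barcodes (6.01%, 5.45 to 6.61), and the B set took 249 and 412. All members together gave 6683 V UMIs in the PBS library and 27450 in the AKK library. Of these, 6279 and 26346 lay in the plasma set, and by share 2.15% and 0.794% in the B set and 3.89% and 3.23% in neither set.

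The plasma rule did not pick antibody-secreting cells alone. A leading heavy segment, defined in the plasma set as one with at least 10 UMIs and over 50% of the heavy V UMIs of its barcode, was called in 31 of 196 PBS barcodes (15.8%, 11.0 to 21.7) and in 140 of 397 AKK barcodes (35.3%, 30.6 to 40.2). Among barcodes with at least 20 marker UMIs a heavy lead was called in 31 of 48 (64.6%) in PBS and 136 of 190 (71.6%) in AKK. Just inside the rule, at 5 to 6 marker UMIs, it was called in 0 of 70 PBS and 0 of 87 AKK barcodes. Just outside it, at 3 to 4 marker UMIs, it was called in 1 of 162 and 0 of 225.

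Marker sums of the 2 kinds of barcode are given side by side. With a heavy lead, the 7 plasma markers (Sdc1, Tnfrsf17, Xbp1, Prdm1, Jchain, Irf4 and Tnfrsf13b) summed to 19468 CPM (counts per 1000000 UMIs) in PBS and 28094 in AKK, and without one to 711 and 2191. The epithelial markers Krt8, Krt18 and Epcam summed to 136 and 106 CPM with a heavy lead and to 2454 and 1877 CPM without one. Epcam alone went the other way: it had a UMI in 27 of 31 PBS and 102 of 140 AKK barcodes with a heavy lead, and in 15 of 165 and 37 of 257 without one. The median depth of the whole set was 56888.5 UMIs in PBS and 30066 in AKK, but in barcodes with a heavy lead it was close, at 31185 and 29440.5. Markers of plasmacytoid dendritic cells (7 genes) summed to 1034 and 1117 CPM with a heavy lead and 791 and 1003 without one. Of these genes Tcf4 was in every barcode with a heavy lead, and Siglech in 1 of 31 and 7 of 140 of them and in 18 of 165 and 31 of 257 of the rest. The neutrophil markers summed to 2099 CPM in the PBS set and 1260 in the AKK set. With a heavy lead they summed to 1199 and 1025 CPM, and without one to 2174 and 1335. S100a8 and S100a9, 2 of these markers, had a UMI in every barcode with a heavy lead. The part of these other cells in sums over the whole set was not tested, and the results below are given per barcode with a lead wherever that is possible.

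**Figure D1:**
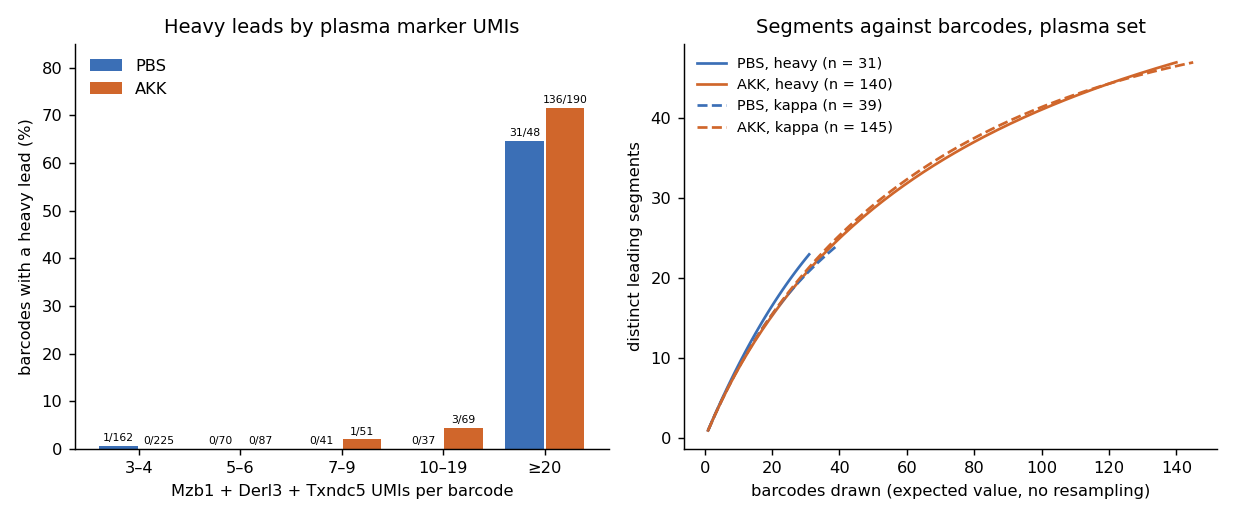
Left: share of barcodes with a heavy lead (%, bars, with counts above) by the summed Mzb1, Derl3 and Txndc5 UMIs of the barcode, in each library. Right: expected number of distinct leading segments (y axis) against the number of barcodes drawn (x axis). All 31 PBS and 136 of the 140 AKK heavy leads lie in barcodes with at least 20 marker UMIs, and at 31 barcodes the heavy curves stand at 23 (PBS) and 21.1 (AKK) segments.

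Most plasma barcodes with a heavy lead carried a single heavy segment. The lead took a median of 100% of the heavy V UMIs of its barcode in both libraries, and it took every one of them in 16 of 31 PBS and 83 of 140 AKK barcodes. The lead had a median of 27 UMIs in PBS (10 to 315) and 29 in AKK (10 to 340). Heavy V UMIs made up 1.09 per 100 heavy constant UMIs in the PBS plasma set and 0.890 in the AKK plasma set, and kappa V UMIs 1.27 and 0.982 per 100 UMIs of Igkc, the kappa constant gene. About 1 V UMI was thus read for every 100 constant UMIs.

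In the barcodes with a heavy lead, which were chosen for their V UMIs, V segments took 0.505% of all UMIs in PBS and 0.535% in AKK, and these barcodes held 84.8% and 91.1% of all V UMIs of the plasma set. The median heavy V total was 32 UMIs (quartiles 19 and 47.5) in PBS and 29.5 (17 and 50.25) in AKK, beside medians of 3674 and 3594.5 heavy constant UMIs.

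The 31 PBS heavy leads fell on 23 segments and the 140 AKK leads on 47. At 31 barcodes, the AKK leads are expected to fall on 21.1 segments, near the 23 of PBS. The chance that a pair of barcodes drawn from a library shares its heavy lead was 1.94% (0.434 to 3.44, an approximate 95% interval) in PBS and 3.29% (2.28 to 4.30) in AKK, and these intervals overlap. Of the 53 segments that led in either library, 17 led in both, which is 73.9% of the PBS list and 36.2% of the AKK list. The other 132 heavy members led no barcode, and no lead was a heavy pseudogene.

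Ighv1-19 (chr12:114708648-114709135) led most often in the AKK library, in 14 of 140 barcodes (10.0%, 5.58 to 16.2), against 1 of 31 in PBS (3.23%, 0.0816 to 16.7). The difference was 6.77 percentage points (Newcombe interval −6.78 to 13.4), which includes 0. All 14 AKK barcodes had Igha, the IgA constant gene, as their most abundant heavy constant gene, and they paired with 9 different kappa leads. Their lead ran from 10 to 60 UMIs with a median of 16.5.

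Ighv1-9 came next in the AKK library with 13 leads (9.29%, 5.04 to 15.4) against 1 in PBS (3.23%), a difference of 6.06 points (−7.45 to 12.6). All 13 were IgA barcodes as well, but 12 of the 13 paired with the same kappa segment, Igkv8-30, so Ighv1-9 and Ighv1-19 reached like counts in different ways. The single PBS barcode led by Ighv1-9 had 315 of these UMIs and was paired with Igkv9-124. Summed UMIs hid this: they gave 23.2 CPM in PBS and 29.0 CPM in AKK for Ighv1-9, with 98.7% of the PBS sum in 1 barcode.

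Ighv3-8 led 2 PBS barcodes (6.45%, 0.791 to 21.4) and 7 AKK barcodes (5.00%, 2.03 to 10.0), and none of these 9 was an IgA barcode. The PBS barcodes were IgG, and the AKK barcodes were 4 IgG and 3 IgM. Ighv1-50 led 3 PBS barcodes (9.68%, 2.04 to 25.8), all IgG, and 5 AKK barcodes (3.57%, 1.17 to 8.14), of which 2 were IgA, 2 IgG and 1 IgM. Its share was 6.11 points lower in AKK (−21.5 to 1.67). Ighv1-81 led 2 PBS barcodes (6.45%), both IgG, and 6 AKK barcodes (4.29%), 5 of them IgA. Ighv3-6 led 2 in PBS (6.45%), both IgA, and 3 in AKK (2.14%), a difference of −4.31 points (−18.6 to 1.82). For each of the heavy segments named by rule, the interval of the difference includes 0.

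**Figure D2:**
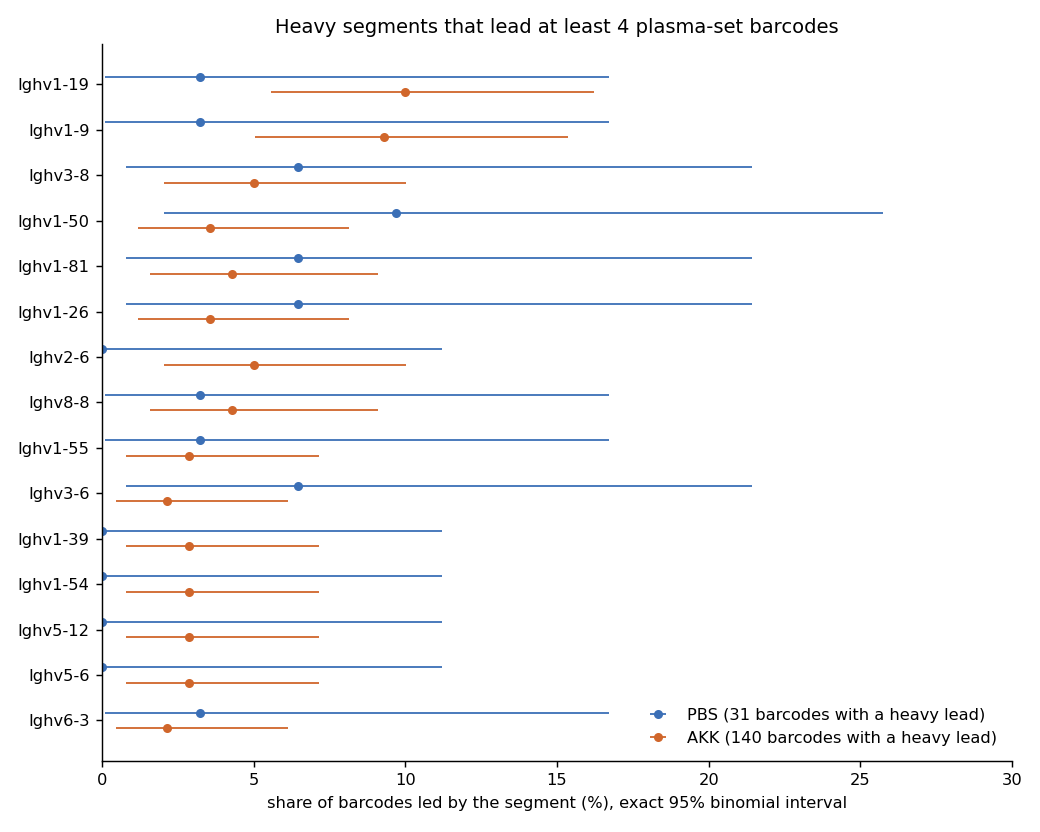
Share of barcodes led by each heavy segment (x axis, %, with exact 95% binomial intervals) for the segments that led at least 4 plasma-set barcodes, in the PBS library (31 barcodes with a heavy lead) and the AKK library (140). Ighv1-19 and Ighv1-9 stand highest in AKK at 10.0% and 9.29%, and the PBS intervals overlap those of AKK for every segment drawn.

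By family, the Ighv1 segments led 21 of 31 PBS barcodes (67.7%) and 80 of 140 AKK barcodes (57.1%), a difference of −10.6 points (−26.6 to 8.69). Ighv1 is the largest mouse family and makes up 47.0% of the heavy members that are not pseudogenes. Within the AKK library, Ighv1 led 61 of 97 IgA barcodes (62.9%) and 19 of 43 others (44.2%), a difference of 18.7 points (0.954 to 35.1). Of those 61 barcodes, 12 carried the same pair, Ighv1-9 with Igkv8-30. The interval takes every barcode as independent, and whether it leaves out 0 without these 12 was not tested. In PBS the shares were 12 of 17 (70.6%) and 9 of 14 (64.3%). The next families were Ighv5 (1 PBS and 12 AKK barcodes), Ighv2 (1 and 11) and Ighv3 (4 and 10), and the difference interval of each includes 0.

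IgA was the most frequent class among barcodes with a heavy lead, with 17 of 31 (54.8%, 36.0 to 72.7) in PBS and 97 of 140 (69.3%, 60.9 to 76.8) in AKK. The 17 PBS IgA barcodes were led by 14 heavy segments and the 97 AKK IgA barcodes by 36. Ighg2c was next with 5 PBS and 21 AKK barcodes, and Ighm led in 0 and 6.

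Where along the heavy locus the leads lay is given as a description of these 2 libraries only, since barcodes are not replicates. The locus was divided after the leads had been seen into 3 parts with near-equal numbers of the heavy members that are not pseudogenes, by distance from the nearest J segment. The 39 segments farthest away, 1561 to 2570 kb from it, led 17 of 31 PBS barcodes (54.8%, 36.0 to 72.7) and 40 of 140 AKK barcodes (28.6%, 21.3 to 36.8). The AKK share was 26.3 points lower (−43.7 to −7.43). The 38 segments of the middle part led 35.5% and 49.3%, and the 38 nearest, 149 to 824 kb away, led 9.68% and 22.1%. When each pair of heavy and kappa lead was counted once per library, the farthest part held 53.6% of PBS and 32.7% of AKK counts, a difference of −20.9 points (−39.6 to −0.790). Heavy-led barcodes without a kappa lead were still counted one by one there. Among them were 6 AKK barcodes led by Ighv2-6, which lies in the nearest part. Whether the interval leaves out 0 with such repeats counted once was not tested. For the kappa locus the interval includes 0: its 34 farthest segments led 48.6% of PBS and 46.5% of AKK barcodes, a difference of −2.12 points (−19.5 to 15.1).

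**Figure D3:**
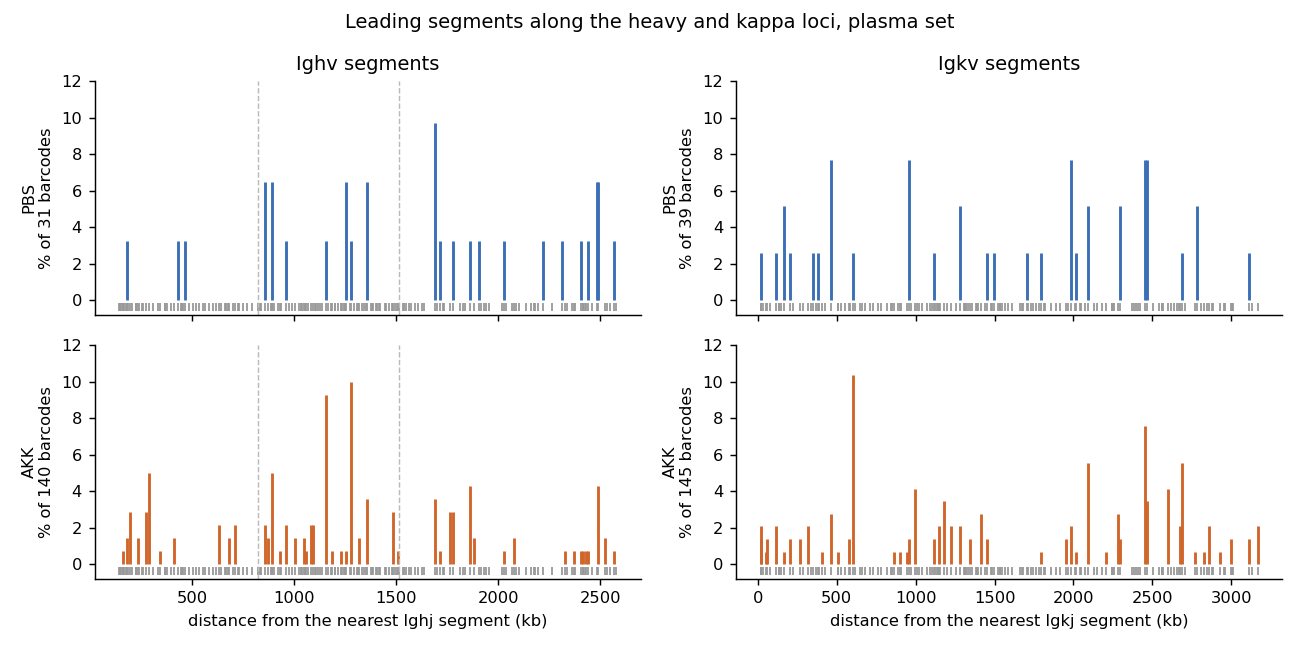
Share of barcodes led by each segment (y axis, %) against its distance from the nearest J segment of its locus (x axis, kb), for heavy segments (left) and kappa segments (right), with grey ticks for every member and dashed lines where the 3 parts of the heavy locus meet. In PBS most heavy leads lie past the second dashed line (54.8%), whereas in AKK 28.6% do and the tallest bars are Ighv1-9 and Ighv1-19 in the middle part.

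The light chain could not be read from the leading V segment alone, because Iglv1 was found in barcodes that make kappa chains. A light lead over Igkv and Iglv together was called in 38 PBS and 155 AKK barcodes, and Iglv1 was that lead in 12 (31.6%, 17.5 to 48.7) and 71 (45.8%, 37.8 to 54.0). The difference was 14.2 points (−3.40 to 29.0). No barcode was led by Iglv2 or Iglv3. The constant genes gave a different count: barcodes with at least 20 light constant UMIs were divided by whether Igkc or the lambda genes Iglc1, Iglc2 and Iglc3 together had more. Of the Iglv1-led barcodes, 11 of 12 in PBS and 55 of 71 in AKK were kappa by this measure.

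These kappa barcodes were not poor in kappa message. The 55 Iglv1-led kappa barcodes of the AKK library had medians of 5211 Igkc, 47 Iglc and 84 Iglv1 UMIs, and lambda took a median of 1.01% of their light constant UMIs. The 11 of the PBS library had medians of 5578, 29 and 105, and lambda took 0.507%. In all 11 PBS barcodes and 49 of the 55 AKK barcodes an Igkv segment also reached 10 UMIs. Over all kappa barcodes, 27 in PBS and 107 in AKK had at least 10 Iglv1 UMIs, and 27 of 27 and 101 of 107 of them had an Igkv segment with at least 10 UMIs as well.

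Iglv1 UMIs were out of proportion to the lambda constant UMIs beside them. In kappa barcodes there were 81.6 (PBS) and 63.7 (AKK) Iglv1 UMIs per 100 Iglc UMIs, whereas in the AKK lambda barcodes there were 1.95 per 100, near the ratio of about 1 seen for heavy and kappa. The reverse was rare. Of the 16 AKK barcodes whose leading lambda gene was Iglc1, all had at least 10 Iglv1 UMIs (25 to 233), 13 had no Igkv UMI, 2 had fewer than 10, and 1 had 10 or more. The AKK kappa barcodes ran from 0 to 686 Iglv1 UMIs.

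**Figure D4:**
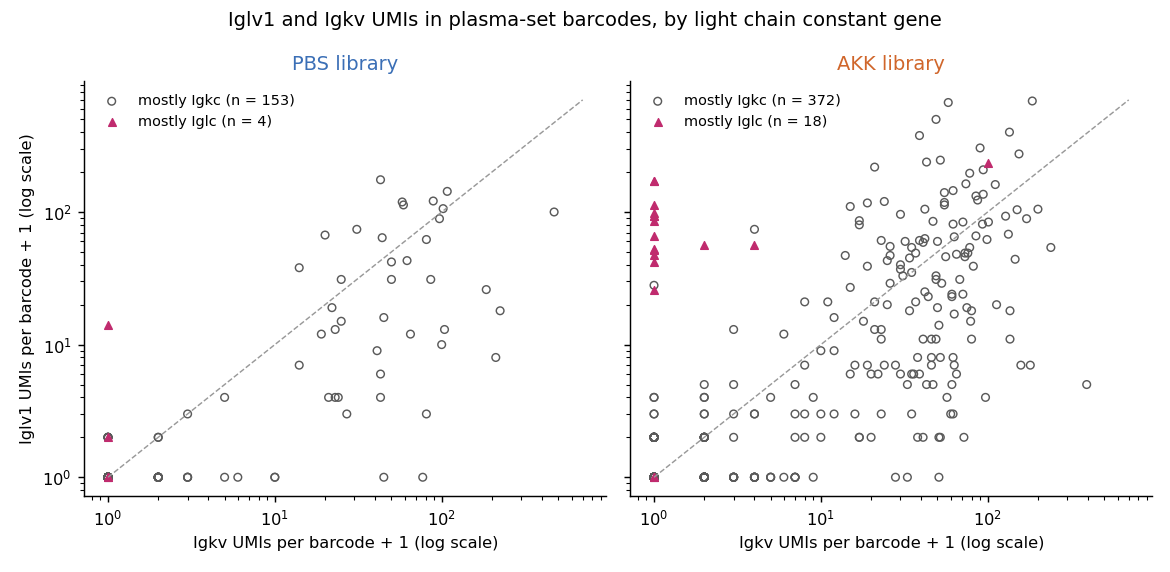
Iglv1 UMIs (y axis) against summed Igkv UMIs (x axis), each + 1 on log scales, for plasma-set barcodes with at least 20 light constant UMIs in the PBS library (left) and the AKK library (right). Circles are barcodes with mostly Igkc, triangles those with mostly Iglc, and the dashed line marks equal values. Kappa barcodes rich in Igkv span 0 to 174 (PBS) and 0 to 686 (AKK) Iglv1 UMIs, while 13 of the 16 AKK barcodes with Iglc1 as their leading lambda gene have no Igkv UMI.

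Among kappa barcodes with a heavy lead, 29 of 31 in PBS and 125 of 128 in AKK had at least 1 Iglv1 UMI, and 21 (67.7%, 48.6 to 83.3) and 96 (75.0%, 66.6 to 82.2) had at least 10. The median was 25 in PBS and 33 in AKK. In AKK, 59 of 86 IgA barcodes (68.6%, 57.7 to 78.2) and 32 of 36 IgG barcodes (88.9%, 73.9 to 96.9) reached 10. In PBS, 11 of 17 IgA and 10 of 14 IgG barcodes did. Over all kappa barcodes, with or without a heavy lead, the level also differed by the leading kappa segment. The 8 AKK barcodes led by Igkv10-96 had 10 to 686 Iglv1 UMIs with a median of 111.5, more than their Igkv UMIs in 6 of 8. The 10 led by Igkv1-110 had 0 to 162 with a median of 3, and the 15 led by Igkv8-30 had 1 to 160 with a median of 12. Another AKK barcode led by Igkv1-110 was lambda by its constant genes and is not among the 10. It had 233 Iglv1 UMIs. Barcodes of 1 segment can share a parent cell, so these are not independent measurements, and Igkv10-96 and Igkv8-30 were chosen here after their values were seen.

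Genes near or across Iglv1 were at a lower level. Iglv3 gave 67 UMIs in the PBS plasma set and 455 in AKK, and Iglv2, the segment most like Iglv1, gave 2 and 14. The gene 2010309G21Rik, annotated on the opposite strand across Iglv1, gave 30 and 88 UMIs in the kappa barcodes with a heavy lead, against 1430 and 8897 of Iglv1. Whether the counting used strand was not stated, so reads of this antisense gene and of Iglv1 may not be fully apart.

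By the constant genes, lambda was the light chain of 0 of 31 PBS barcodes with a heavy lead (0 to 11.2%; a count of 0 here allows a share of up to that bound) and of 12 of 140 AKK barcodes (8.57%, 4.51 to 14.5). The difference was 8.57 points (−3.03 to 14.4). All 12 led with Iglc1. A single heavy segment accounted for much of this count: Ighv2-6 led 6 of the 12, all IgA, with 2545 to 5684 Iglc1, 25 to 84 Iglv1 and 0 to 3 Igkv UMIs each. The seventh AKK barcode led by Ighv2-6 was also IgA and had 2971 Iglc1 beside 3949 Igkc UMIs. In PBS, Ighv2-6 led no barcode and had 1 UMI. Without those 6 lambda barcodes the AKK share was 6 of 134 (4.48%, 1.66 to 9.49), a difference of 4.48 points from PBS (−6.81 to 9.42). Ighv2-6 was named after its values were seen.

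Read over Igkv alone, the light leads were as spread as the heavy ones. A kappa lead was called in 39 PBS and 145 AKK barcodes, and it took medians of 92.6% and 95.2% of the kappa V UMIs. The PBS leads fell on 24 segments and the AKK leads on 47, and at 39 barcodes 25.0 are expected in AKK. The chance of a shared kappa lead was 2.70% (1.31 to 4.09) in PBS and 3.13% (2.18 to 4.08) in AKK. With Iglv1 among the candidates it was 10.8% and 22.1%. Of 52 segments that led in either library, 19 led in both, 79.2% of the PBS list and 40.4% of the AKK list.

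Igkv8-30 was the most frequent kappa lead of the AKK library with 15 of 145 barcodes (10.3%, 5.91 to 16.5), all IgA, 12 of them with Ighv1-9. In PBS all 223 of its UMIs were in 1 barcode. Igkv1-110 led 3 of 39 PBS barcodes (7.69%), all with Ighv1-50 and none IgA, and 11 of 145 AKK barcodes (7.59%), 10 of them IgA and spread over 9 heavy leads. The same share in the 2 libraries thus came from different pairings. Igkv17-121 led 8 AKK barcodes, all IgA, and Igkv10-96 led 2 PBS and 8 AKK barcodes, none IgA.

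By the planned light leads (Igkv and Iglv together), Igkv19-93 and Igkv12-46 had the largest negative differences, for which they were named, each leading 3 of 38 PBS barcodes (7.89%) and 2 of 155 AKK barcodes (1.29%), a difference of −6.60 points each (−19.5 to −0.473). These rest on 3 PBS barcodes each. Over Igkv alone, Igkv19-93 led 3 of 39 and 3 of 145 barcodes, a difference of −5.62 points (−18.3 to 0.712), and Igkv12-46 led 3 and 2, a difference of −6.31 points (−19.0 to −0.170). Igkv1-117 led 0 and 6 barcodes (3.87%, 1.43 to 8.23). Of families, Igkv4, the largest kappa family with 26.0% of the kappa members that are not pseudogenes, led 15.4% of PBS and 17.9% of AKK barcodes, Igkv1 10.3% and 14.5%, and Igkv8 5.13% and 12.4%.

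A heavy and a kappa lead were both called in 30 PBS and 123 AKK barcodes. The PBS barcodes held 27 different pairs, of which 2 occurred in more than 1 barcode and took 5 barcodes (16.7%, 5.64 to 34.7). The AKK barcodes held 90 pairs, of which 18 recurred and took 51 barcodes (41.5%, 32.7 to 50.7). This share grows with the number of barcodes read. The chance that 2 barcodes share their pair does not, and it was 0.920% (0 to 2.42) in PBS and 1.25% (0.332 to 2.17) in AKK. Over Igkv and Iglv leads together, recurring pairs took 4 of 28 PBS barcodes (14.3%, 4.03 to 32.7) and 66 of 126 AKK barcodes (52.4%, 43.3 to 61.3). A shared pair of V segments without the junction does not define a clone.

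The largest pair was Ighv1-9 with Igkv8-30, in 12 AKK barcodes and no PBS barcode. All 12 were IgA kappa barcodes, with 13 to 108 heavy lead UMIs (median 29.5) and 22 to 389 kappa lead UMIs (median 80.5). In 3 of the 12, Iglv1 outnumbered Igkv8-30 and would have been taken for the light chain. Without these barcodes, the recurring pairs held 39 of 111 AKK barcodes (35.1%, 26.3 to 44.8).

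Ighv3-8 with Igkv10-96 was the only pair that recurred in both libraries. It was found in 2 PBS barcodes, 1 Ighg1 and 1 Ighg3, and in 4 AKK barcodes, 2 Ighg2c, 1 Ighg2b and 1 Ighg3, so the 6 barcodes were all IgG but spread over 4 constant genes. The heavy lead had 23 to 53 UMIs in PBS and 17 to 111 in AKK. Ighv3-8 with Igkv4-57-1 was found in 3 AKK barcodes, all of them IgM, with 21 to 48 heavy lead UMIs. Ighv1-50 with Igkv1-110 was found in 3 PBS barcodes, 2 Ighg2c and 1 Ighg2b, and in 1 AKK barcode.

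Ighv1-81 with Igkv1-110 and Ighv1-19 with Igkv17-121 were each found in 3 AKK barcodes, all IgA. The other 13 recurring AKK pairs held 2 barcodes each: both were IgA in 9 pairs and both Ighg2b in 2, and the remaining 2, Ighv5-6 with Igkv4-68 and Ighv14-3 with Igkv6-13, joined an Igha and an Ighg1 barcode. In all, 7 pairs were seen in both libraries, 25.9% of the PBS pairs and 7.78% of the AKK pairs. No barcode sequence of the plasma set was shared by the 2 libraries.

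**Figure D5:**
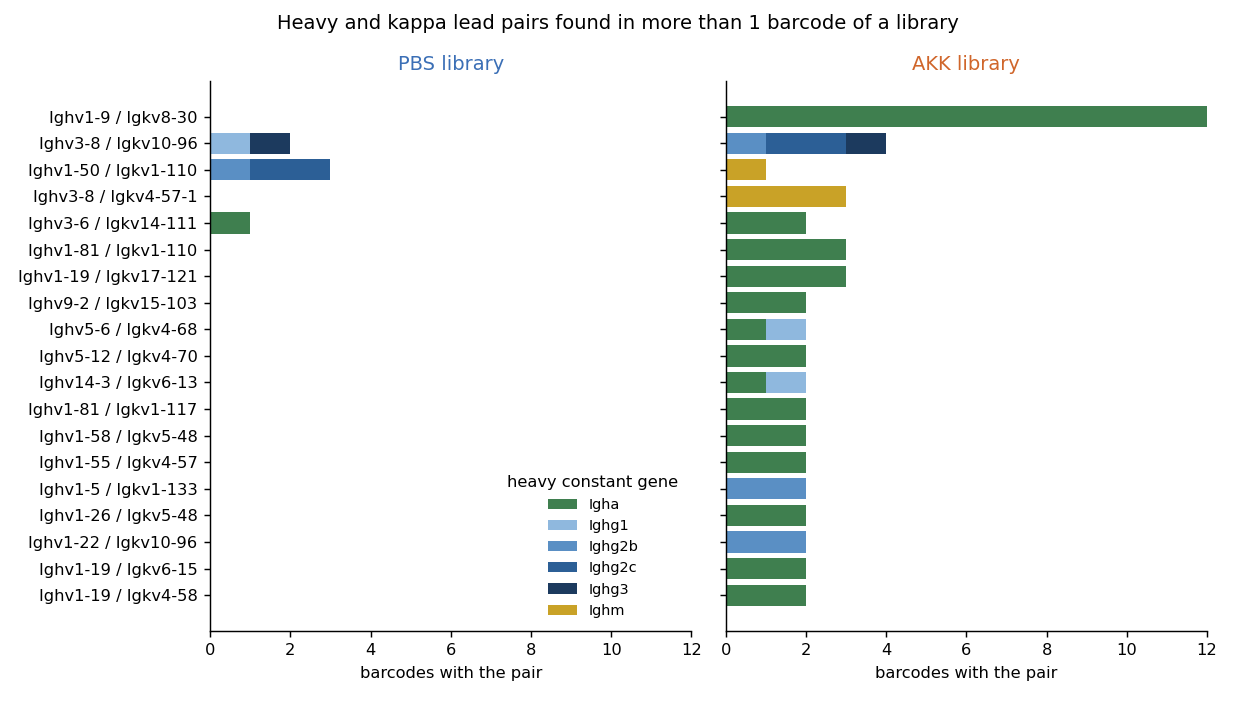
Number of barcodes (x axis) for each pair of heavy and kappa lead found in more than 1 barcode of a library (rows), coloured by the most abundant heavy constant gene, in the PBS library (left) and the AKK library (right). Ighv1-9 with Igkv8-30 has 12 barcodes, all Igha, in AKK and none in PBS, and Ighv3-8 with Igkv10-96 has 2 in PBS and 4 in AKK, none Igha.

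A second segment was often counted beside the lead. Among barcodes whose top heavy segment had at least 10 UMIs, a runner-up with at least 3 UMIs was seen in 17 of 171, and it was of the same family in 11 and at least 90% identical in 6. Over all heavy pairs, 2.30% are that alike. Ighv1-62-3 and Ighv1-72, printed above, divided the UMIs of 3 barcodes. Ighv1-62-3 led with 34 against 27 in PBS and with 10 against 8 in AKK, and Ighv1-72 led with 10 against 8 in another AKK barcode. For kappa, 74 of 186 barcodes had a runner-up, of the same family in 27 and at least 90% identical in 23. The median identity of kappa lead and runner-up was 66.4%, against 61.1% over all kappa pairs. Of 15 barcodes topped by Igkv1-110, 14 had Igkv1-117 as runner-up, which is 96.8% identical to it and had a median of 23.6% of its UMIs. The counts of these segments are uncertain, since no source says how reads that fit several members were counted.

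Summed over the plasma set, V UMIs were 0.0456% of all UMIs in PBS and 0.142% in AKK. Of the 348 members, 171 had a UMI and 109 had at least 20 over both libraries. Of these 109, 31 (28.4%) were at least 2-fold higher in AKK on the scale of log2(CPM + 5), 4 were at least 2-fold lower and 74 were neither. Over all 15140 genes with 20 UMIs, 1.1% were that much higher and 0.601% that much lower, 1.7% in either direction. The median log2 ratio of the 109 was 0.54, against −0.02 for all genes tested. Scaled to the V UMIs of the same chain, 52 were higher and 35 lower. The added 5 is small beside a single UMI on that scale, so a segment absent from 1 library is called readily. Of the 109, 35 had no UMI in PBS and 5 had none in AKK. Other genes have no counterpart to that scaling, so it has no background. In barcodes with a heavy lead alone, 51 of 104 were higher and 32 lower by CPM. Over all 9836 genes with 20 UMIs there, 2.71% were higher and 1.07% lower, 3.78% in either direction. Barcodes with a heavy lead were chosen by the V UMIs counted here, so no difference in V use is read from the 51 and 32. In 63 of the 109 segments in PBS and 52 in AKK, 1 barcode held over 50% of the UMIs.

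The highest of these segments by CPM were already seen as leads. Iglv1 had 119 CPM in PBS and 595 in AKK, a ratio of 4.99 (4.73 to 5.25, counting error). Igkv8-30 had 16.2 and 82.4 CPM, a ratio of 5.09 (4.42 to 5.88). Scaled to the V UMIs of the light chains, their log2 ratios were 0.62 and 0.65, below the 2-fold rule. Ighv1-19 had 1.38 and 21.9 CPM, a ratio of 15.9 (10.0 to 26.6), and Igkv12-46, the lower one named by rule, 15.6 and 4.36 CPM, a ratio of 0.279 (0.214 to 0.362). In PBS 1 barcode held 47.9% of its UMIs. On the log2(CPM + 5) scale Igkv12-46 was at −1.14, and at −0.92, which is inside the 2-fold rule, without its top barcode of each library. The other 3 lower segments, Igkv9-124, Igkv9-119 and Igkv8-19, each had over 89% of their PBS UMIs in 1 barcode (89.8%, 97.5% and 89.7%).

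Of the 12 constant genes and Jchain, which links antibody units, 9 of 13 were higher in the AKK plasma set and 1 was lower. Over all 15140 genes with 20 UMIs, 1.1% were higher and 0.601% lower by the same rule. These sums cover the whole set, in which 15.8% of PBS and 35.3% of AKK barcodes had a heavy lead. Igha had 5395 CPM in PBS and 24340 in AKK, Ighm 111 and 1844, and Iglc1 64.7 and 4389, whereas Ighg1 had 1555 and 613. Of the 81545 Iglc1 UMIs of the AKK plasma set, 72025 were in its 18 lambda barcodes. Of the genes of recombination and repair, Dntt, which adds bases at the junctions, Ung and Polh had 20 UMIs, and none of these 3 passed the 2-fold rule in either direction. Rag1, a part of the recombinase, had 0 UMIs in both plasma sets. The surrogate light chain genes Igll1, Vpreb1 and Vpreb2 did not reach 20 UMIs there. Vpreb3, listed with them, did, with 13.9 and 35.4 CPM.

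The B set held few V UMIs and was mixed as well. Its neutrophil markers summed to 17734 CPM in PBS and 9445 in AKK, and their part in the V counts was not tested. A V UMI was seen in 76 of 249 PBS barcodes (30.5%, 24.9 to 36.7) and 141 of 412 AKK barcodes (34.2%, 29.6 to 39.0), with median depths of 8759 and 7416.5 UMIs. T cells do not join these segments productively, so barcodes with at least 2 UMIs of Cd3e and Cd3d that were in neither set gave the level of free RNA. A V UMI was seen in 19 of 463 PBS T barcodes (4.10%, 2.49 to 6.33) and 120 of 1024 AKK T barcodes (11.7%, 9.81 to 13.8), at median depths of 10441 and 9470.5 UMIs. Thinned to 4713 UMIs, the shares were 17.7% and 23.1% in the B set and 2.09% and 4.97% in T barcodes, with 34, 72, 30 and 79 shallower barcodes left out. The B set thus stood above the background in both libraries, and the background itself was higher in AKK.

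The ratio of Iglv1 to Igkv in the T barcodes lay near that of the plasma set in AKK, and nearer that of the B set in PBS, where it rests on 3 Iglv1 UMIs. The AKK T barcodes had 47 Iglv1 and 43 Igkv UMIs, or 109 Iglv1 per 100 Igkv (70.7 to 169), beside 123 (119 to 126) in the AKK plasma set and 17.6 (10.5 to 28.2) in the AKK B set. In PBS the values were 16.7 (3.14 to 57.1) in T barcodes, 55.3 (52.1 to 58.8) in the plasma set and 7.69 (2.74 to 17.5) in the B set. Per 100 lambda constant UMIs, the B set had 1.01 (PBS) and 1.30 (AKK) Iglv UMIs.

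A lead in the B set needed at least 2 UMIs and over 50% of its chain. A heavy lead was called in 7 PBS and 7 AKK barcodes and a light lead in 6 and 21, against 0 and 2 heavy and 0 and 6 light leads in T barcodes by the same rule. The 7 PBS heavy leads fell on 7 segments and the 7 AKK leads on 6, and Ighv1 segments led 5 of 7 in each library (71.4%, 29.0 to 96.3). A lambda segment led 0 of 6 and 2 of 21 barcodes (9.52%, 1.17 to 30.4), both by Iglv1. Both a heavy and a light lead were called in 1 PBS and 4 AKK barcodes. The most frequent light lead was Igkv1-110 in 4 AKK barcodes, and the most frequent heavy lead was Ighv1-9 in 2. Ighv1-9 was also a common plasma lead of that library, and the part of free RNA in these calls was not tested.

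The B set was too shallow to compare segment use: only 2 members had 20 UMIs, and 1 of them was called lower in AKK. This was Ighv1-80, with 30 UMIs in PBS, 29 of them in 1 barcode, and 0 in AKK. Over all 11890 genes with 20 UMIs in the B set, 3.71% were called, 0.782% higher and 2.93% lower. The other was Iglv1, with 6 and 21 UMIs. Of the constant genes, 5 of 12 with 20 UMIs were higher in AKK and none lower by the 2-fold rule, among them Igha (351 and 747 CPM) and Ighg2c (47.6 and 136). The surrogate light chain stands in before a light chain is joined. Its genes Igll1 and Vpreb1 had 18 and 19 UMIs in PBS and 0 and 1 in AKK, and Vpreb2 had 7 and 0. Vpreb3, listed with them, had 177 and 144. Rag1 had 3 and 0. How many barcodes held the UMIs of these genes is not given here, so no difference between the libraries is read from them.

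Few leads lay outside both sets. By the plasma rule for leads, 1 of 4643 other PBS barcodes and 1 of 5801 other AKK barcodes had a heavy lead, and 0 and 2 had a kappa lead. Few members annotated as pseudogenes were read: Igkv3-11, with 41 and 90 UMIs, was the kappa lead of 2 PBS barcodes and 1 AKK barcode, and 14 of 130 had any UMI in the plasma set.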

How the data were processed

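UMI counts per gene and barcode were used as deposited by the authors (10x 3′ v3 chemistry). Cell Ranger 5.0.1 and build mm10 come from the submitters' processing notes, whereas the matrix headers name Cell Ranger 7.1.0. No source used here says whether intronic reads were counted. The V exon is far from the sequenced 3′ end, which limits V counts.

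Every deposited barcode was kept. Doublets were not removed, except in an alternative with Scrublet (scanpy 1.11.5). Sets, leads and the 2-fold rule are defined in the report, and CPM was computed here over each set. Intervals are 95% (exact binomial for shares and UMI ratios, Newcombe for differences). Segments were named by lead count, by difference of lead share, or as Iglv. Sequences and positions came from GENCODE M21 transcripts. Steps ran in Python 3.11.15 with numpy 2.4.6, scipy 1.17.1, pandas 2.3.3 and matplotlib 3.10.9, and were tested on simulated data. The members and lists were chosen with earlier results of these data known.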

Additional observations from a re-analysis of the deposited data

How the results depend on the processing

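No paired analysis was possible because each group is 1 library. Leaving out a replicate was not possible for the same reason, and depth limits the B set most, with 7 heavy leads in each library. Of the recomputed values for the main results, 117 moved by less than their counting error or 1.5 times, and 36 moved further. For single segments, 189 did not move further, 35 did and 2 were labelled as reversed. Log2 ratios reported inside the 2-fold rule did not get this label when their sign changed. They are counted among the 189 and 35, so the 2 are not all the changes of sign. The alternatives on Igkv alone, recurring pairs, locus position, heavy-led barcodes, the plasma rule of 20 UMIs and the constant genes were chosen after seeing the data.

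With a lead of over 80% of its chain, the difference in Iglv-led share was 36.8 points (1 of 12 against 28 of 62). Light leads were called in 38 and 155 barcodes as reported. Of the Iglv1-led ones, 11 of 12 and 55 of 71 were kappa by their constant genes. No difference in lambda chain use is therefore read from the 36.8 points. By the 80% rule, light leads fell on 9 (PBS) and 19 (AKK) segments. Recurring AKK pairs took 37.0% of barcodes (52.4% with any light lead, as reported). B barcodes with both leads numbered 0 and 2 (1 and 4 as reported). With Igkv alone, the chance of a shared light lead was 2.70% and 3.13%, and recurring AKK pairs took 41.5%, or 35.1% without Ighv1-9 with Igkv8-30.

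With the plasma barcodes kept in the B set, heavy leads fell on 17 and 33 segments, light leads on 13 and 28, and 12 and 41 barcodes had both. With B leads of at least 3 UMIs, heavy leads fell on 1 and 1 and light leads on 3 and 4, and 0 AKK barcodes had both. PBS B barcodes with both leads were also 0 with a B rule of 2 UMIs and after the quality and doublet filters, and AKK T barcodes with a heavy lead were 1 with a T rule of 4 UMIs.

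For UMI sums, 31 higher and 4 lower became 67 and 11 with a pseudocount of 1 CPM (2.85% and 2.19% of all genes). They became 50 and 22 with a plasma rule of 20 UMIs (2.09% and 3.96% of all genes). Scaled to the chain, where the pseudocount has little weight and no background exists, they became 52 and 35. In heavy-led barcodes, which were chosen by V UMIs, they became 51 and 32. Without each segment's top barcode, 0 were lower in the plasma set and 0 in the B set. In the B set 1 was higher with a pseudocount of 1 CPM and 1 when scaled to the chain. The log2 ratio of Igkv1-110, 1.29 as reported, was -0.083 scaled to the chain and -0.053 in heavy-led barcodes.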
